A study of Mus musculus with 3 samples.

Results

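The proteasome genes of mouse splenic T cells cultured with LZ-8 were examined as a family. The family was every gene symbol of the deposited count table that begins with Psma, Psmb, Psmc, Psmd, Psme, Psmf or Psmg followed by a number, which gave 48 of the 44788 symbols listed. Of these, 46 had at least 1 CPM (read counts per 1000000 counts of the library) in at least 2 libraries and entered the test described below; Psma8 and Psmb11 did not. The data came from 3 RNA-seq libraries of a single group, T lymphocytes from the spleens of six-to-eight week old BALB/c mice, bound with magnetic beads against CD90.2 and kept with LZ-8, an immunomodulatory protein of the fungus Ganoderma lucidum, for 15 h. Cells without LZ-8 were not analysed here, so the values describe the treated state only and show no effect of LZ-8. Nothing in the labels tells whether separate animals or cultures stand behind the replicates, and p-values between libraries may reflect technical spread.

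The proteasome is the protease that degrades proteins tagged with ubiquitin. Its core particle is a barrel of alpha rings, which form the gate, and beta rings, which hold the proteolytic sites; the regulatory cap binds and unfolds the tagged protein with its ring of ATPases. In lymphocytes, and in many cells after interferon, the catalytic subunits Psmb5, Psmb6 and Psmb7 can be replaced during assembly by Psmb8, Psmb9 and Psmb10. The resulting immunoproteasome is known for cutting peptides that fit class I MHC molecules. Activators of the Psme family dock on the core in place of the cap.

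The libraries held 19041670, 12669690 and 14715992 counts in replicates 1, 2 and 3. The 12 T cell markers summed to between 4683 and 4873 CPM. The 10 B cell markers, of cells that also express immunoproteasome genes, summed to between 19.7 and 23.4 CPM, and none of them reached 10 CPM. Markers of monocytes and macrophages, 10 in number, added up to between 4.03 and 5.03 CPM, with no read for Csf1r, C1qa, C1qc and Fcgr1, and the 8 dendritic cell markers to between 9.79 and 12.5 CPM, most of it Zbtb46.

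The family was expressed at a high level as a whole. Its genes took 0.735%, 0.742% and 0.752% of all counts in replicates 1, 2 and 3. Levels are given per kilobase of exon wherever genes are compared, since a longer transcript yields more reads. The length is the union of all annotated exons of a gene, so it can exceed that of the transcripts the cells express. For Psmd9 it is 7248 bases, against 746 coding bases. Rankings per kilobase of exon therefore depend on the gene models, and coding length is given as an alternative. Among the 46 tested members the median level was 51.5 CPM per kilobase, against 8.37 over the 12310 tested genes that had an exon length. Of the 46, 44 lay above that median of all genes and 23 above 50.7 CPM per kilobase, the 90th percentile of them. Counted reads put 32 members above 100 CPM.

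**Figure D1:**
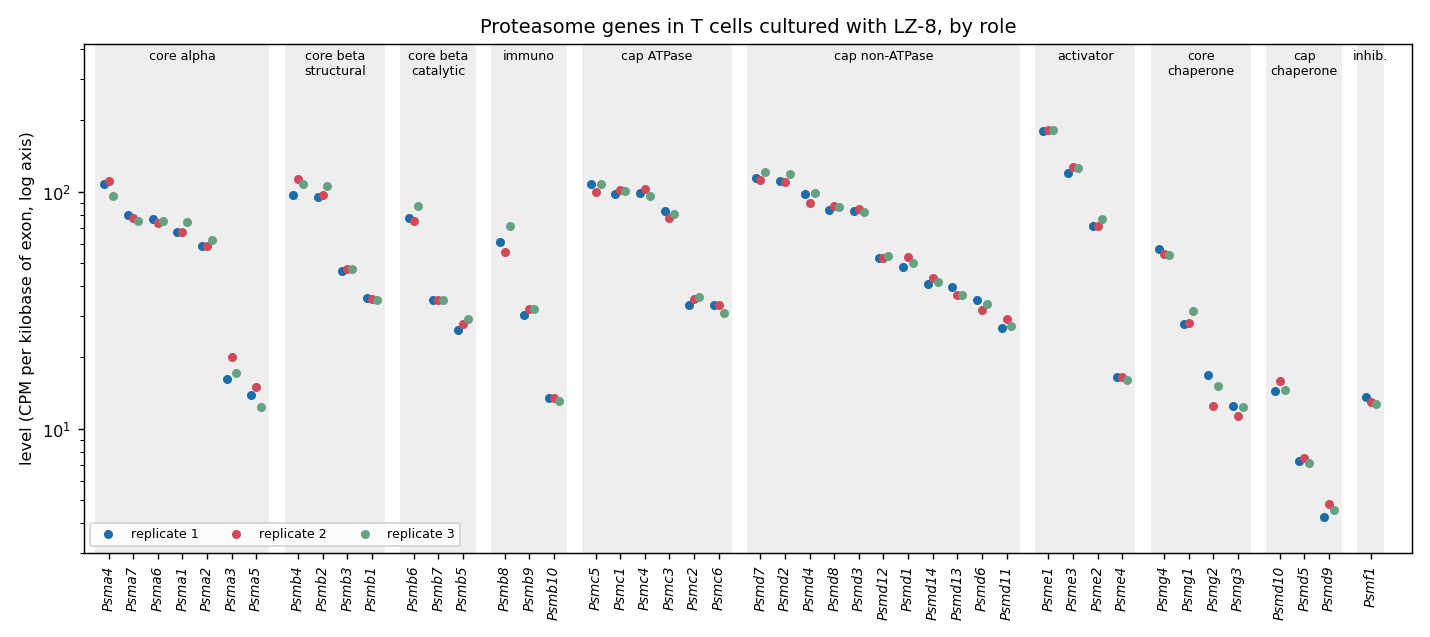
Each point is the level of a gene in a library, in CPM per kilobase of exon on a log axis, with genes grouped by role and ordered by mean within a role. Of the 46 tested members Psme1 is highest at 181 CPM per kilobase and Psmd9 lowest at 4.52; the 3 libraries of a gene lie close together compared with the distance between genes.

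The 7 alpha subunits, which form the outer rings and the gate of the core, lay at unequal levels, with a pair far below the rest per kilobase of exon. Psma4 was highest at 108, 111 and 96.1 CPM per kilobase in replicates 1, 2 and 3. Psma7 (77.7 ± 2.45 CPM per kilobase), Psma6 (75.3 ± 1.17), Psma1 (69.9 ± 4.02) and Psma2 (60.2 ± 2.15) followed (SD, n = 3). Psma3 stood at 16.2, 20.1 and 17.2 CPM per kilobase, and Psma5 at 13.9, 15.0 and 12.4. In every library Psma3 and Psma5 were the lowest of the 7. Per kilobase of coding sequence Psma5 (24.4) and Psma3 (90.8) were again the lowest, but Psma6 (123) was nearer to Psma3 than to the other 4, at 261 to 317. An assembled ring holds each alpha subunit in equal number.

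The 4 structural beta subunits, which complete the inner rings without a proteolytic site, lay between 35.3 ± 0.331 CPM per kilobase (Psmb1) and 106 ± 8.16 (Psmb4), with Psmb3 at 46.8 ± 0.471 and Psmb2 at 99.5 ± 5.85. With coding length Psmb4 (261) remained highest, while Psmb3 (175) was lowest. That low place depended on reads listed under pseudogene copies, described below. With these added Psmb3 stood at 253 per kilobase of coding sequence, and Psmb2 (199) was lowest. Of the constitutive catalytic subunits, Psmb6 stood at 77.2, 75.05 and 87.3 CPM per kilobase in replicates 1, 2 and 3. It carries the caspase-like site. Psmb7, of the trypsin-like site, stood at 34.9, 35.0 and 35.1 CPM per kilobase (SD 0.098). Psmb5, of the chymotrypsin-like site, was lowest at 26.1, 27.7 and 29.03 CPM per kilobase.

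Low levels of Psma5, Psma3 and Psmb5 went together with reads listed under pseudogenes of almost the same sequence. Processed pseudogenes are intronless genomic copies of a spliced transcript. Of the family, 12 genes had pseudogenes in the table with at least 10% of their own 31-base words also in the parent's transcripts, 19 copies in all. For Psma5 the copies Gm12989 and Gm8394 together had 1486, 975 and 1057 reads in replicates 1, 2 and 3, against 349, 251 and 241 reads listed under Psma5. The copies therefore held 81.0%, 79.5% and 81.4% of the reads of parent and copies. For Psma3, the 3 copies Gm13835, Gm4742 and Gm5406 held 67.9%, 63.2% and 67.2%. For Psmb5, the copies Gm3375 and Psmb5-ps held 66.3%, 65.3% and 63.8%. Those 3 parents were the members whose copies held more reads than the parent, in each of the 3 libraries. Copies of Psmb3 (30.8 ± 0.246%), Psmd11 (26.7 ± 0.228%), Psma4 (21.8 ± 0.937%) and Psmd2 (13.5 ± 0.099%) held smaller shares, and those of the remaining 5 parents held under 10%.

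**Figure D2:**
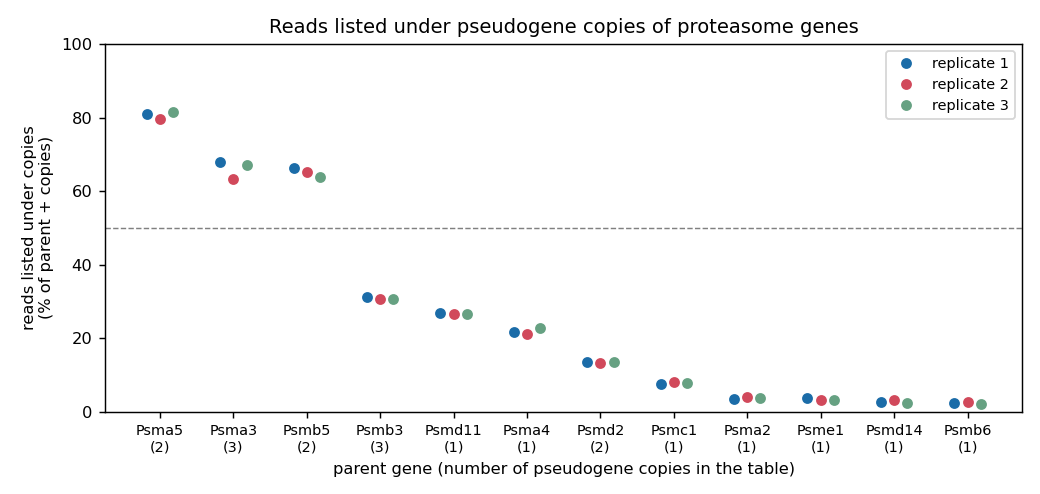
Points give, for each library, the percentage of the reads of a parent gene and its pseudogene copies that the table lists under the copies; the dashed line marks 50%. Psma5, Psma3 and Psmb5 lie above the line in every library, the other 9 parents below it.

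The copies of Psma5, and the copies of Psmb5 and Psma3 with the most reads, differ from their parents by few aligned coding bases or by none. Psmb5 (chromosome 14, 54614119 to 54618022, GRCm38, minus strand) and Gm3375 (chromosome 7, 3181093 to 3181888, plus strand) were identical at 784 of 792 aligned coding bases. Psmb5-ps (chromosome 11, 102659128 to 102659925, minus strand) was more diverged, identical at 740 of 780, and had 1, 1 and 0 reads against 878, 592 and 678 for Gm3375. Coding bases 355 to 474 of Psmb5, counted from the A of the start codon, are shown with the matching stretches of the copies because this is the first run of 120 bases that aligns without a gap and differs in both. Capitals mark each base at which any of the sequences differs.
Psmb5: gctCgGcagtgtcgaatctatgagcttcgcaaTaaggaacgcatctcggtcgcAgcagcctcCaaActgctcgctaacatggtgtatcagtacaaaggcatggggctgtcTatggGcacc
Gm3375: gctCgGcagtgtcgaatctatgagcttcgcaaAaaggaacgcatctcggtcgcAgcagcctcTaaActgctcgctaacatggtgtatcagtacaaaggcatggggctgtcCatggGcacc
Psmb5-ps: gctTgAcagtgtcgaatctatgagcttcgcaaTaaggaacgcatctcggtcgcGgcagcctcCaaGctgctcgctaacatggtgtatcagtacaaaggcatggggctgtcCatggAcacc
In this stretch Gm3375 differs from Psmb5 at 3 bases and Psmb5-ps at 6. Psma5 (chromosome 3, 108256926 to 108279974, plus strand) was identical to Gm12989 (chromosome 4, 135715868 to 135716598, minus strand) at 713 of 720 aligned coding bases and to Gm8394 (chromosome 10, 85313488 to 85314439, plus strand) at 715 of 723. The stretch chosen by the same rule covers coding bases 208 to 327.
Psma5: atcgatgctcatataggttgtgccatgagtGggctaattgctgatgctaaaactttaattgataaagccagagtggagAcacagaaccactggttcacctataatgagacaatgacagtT
Gm12989: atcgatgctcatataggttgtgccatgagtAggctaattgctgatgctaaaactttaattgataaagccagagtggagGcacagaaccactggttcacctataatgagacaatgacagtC
Gm8394: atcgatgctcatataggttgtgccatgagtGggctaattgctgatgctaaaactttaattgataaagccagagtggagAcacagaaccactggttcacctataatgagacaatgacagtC
Here Gm12989 differs from Psma5 at 3 bases and Gm8394 at 1. Gm13835 (chromosome 6, 31141979 to 31142663, minus strand) was identical to Psma3 at all 662 aligned coding bases. The other copies of Psma3, Gm4742 and Gm5406, were identical at 742 and 738 of 764. Copies of the other parents were not aligned.

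With the reads of the copies added to their parents, an alternative chosen after the values were seen, the core genes lay closer together. Psma5 went from 13.8 to 71.0 ± 3.66 CPM per kilobase, Psma3 from 17.9 to 52.6 ± 2.17 and Psmb5 from 27.6 to 79.2 ± 1.49 (SD, n = 3). Across the 14 constitutive core genes the highest level was 7.70 times the lowest as listed and 3.83 times with the copies added. Per kilobase of coding sequence these values were 13.0 and 4.52. Whether the reads listed under the copies came from the parent transcripts was not tested, and the handling of reads that match several places is not given in the sources used here.

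The 3 immunoproteasome subunits were all present, at unequal levels. Psmb8 (chromosome 17, 34197721 to 34201454), which replaces Psmb5, stood at 61.4, 55.7 and 71.4 CPM per kilobase in replicates 1, 2 and 3. Psmb9 (chromosome 17, 34181987 to 34187764), which replaces Psmb6, stood at 30.1, 32.0 and 32.1 CPM per kilobase. Psmb10 (chromosome 8, 105935735 to 105938444), which replaces Psmb7, stood at 13.4, 13.5 and 13.2 CPM per kilobase. The order Psmb8, Psmb9, Psmb10 held in every library without overlap, and also per kilobase of coding sequence (257, 170.1 and 27.8 CPM per kilobase).

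Each subunit was compared with the one it replaces, within a library. Psmb8 was above Psmb5 2.26-fold, a log2 ratio of 1.18 ± 0.15 (SD, n = 3), with 1.23, 1.01 and 1.30 in replicates 1, 2 and 3. Of the reads listed under this pair, 89.8% were under Psmb8 in replicate 1 (95% Clopper-Pearson bounds of 88.9 and 90.7%). This share is not divided by length and leaves out the reads under the copies of Psmb5, 879 in replicate 1. The share was 88.3% in replicate 2 (bounds of 87.1 and 89.5%) and 90.2% in replicate 3 (bounds of 89.3 and 91.2%), where the bounds cover counting error only. Psmb9 was below Psmb6, with a log2 ratio of -1.34 ± 0.11, and Psmb10 below Psmb7, with -1.39 ± 0.02. All 3 ratios had the same sign in 3 of 3 libraries. A two-sided exact sign-flip permutation test over the libraries gave p = 0.25 for each of 6 gene ratios, raw and adjusted, which is the smallest that 3 libraries allow.

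The Psmb8 to Psmb5 ratio turned with the treatment of copy reads. With the copies added it was -0.34 ± 0.17 per kilobase of exon and 1.51 ± 0.17 per kilobase of coding sequence, so its sign was not settled by these data. The exon length of Psmb8 is 3381 bases and its coding length 828, against 899 and 792 for Psmb5. Psmb9 stayed below Psmb6 per kilobase of coding sequence, by a smaller margin (log2 ratio -0.30 ± 0.11), and Psmb10 stayed further below Psmb7 (-2.37 ± 0.02). An antisense gene, Gm20496, overlaps Psmb8, and Tap1 overlaps Psmb9 by 212 bases on the other strand. In the third pair, the antisense gene Gm16156 covers all 2710 bases of Psmb10, and Nek6 (220, 155 and 159 reads) overlaps Psmb7 over 6571 bases on the other strand. Strand use in the counting is not given in the sources used here, so reads from these overlaps cannot be assigned.

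**Figure D3:**
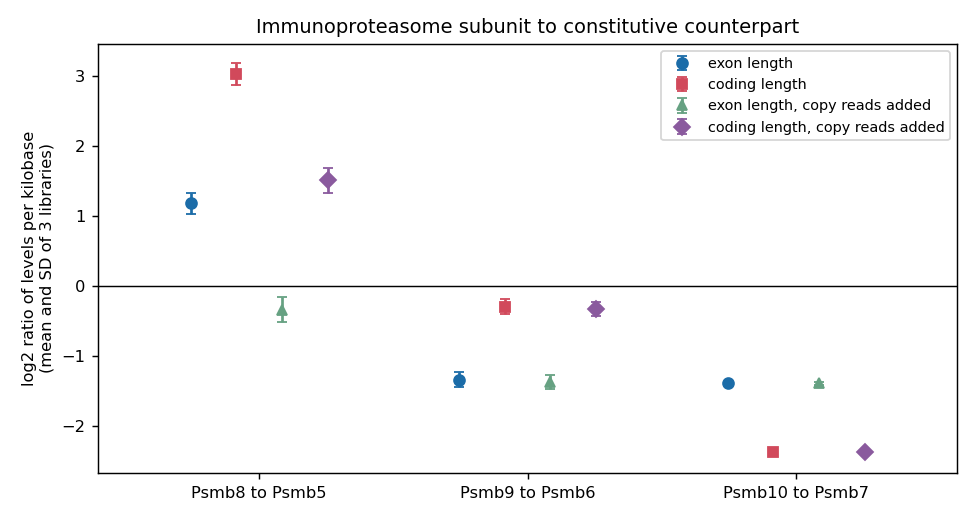
Points are the mean log2 ratio of each immunoproteasome subunit to the subunit it replaces, per kilobase, and bars the SD over 3 libraries, for exon or coding length and with or without the reads of pseudogene copies. Psmb8 to Psmb5 lies at 1.18, 3.03, -0.34 and 1.51 under the 4 treatments, while the other pairs stay below 0.

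The regulatory cap was represented by 6 ATPases and 11 other subunits. The ATPases unfold the substrate and open the gate; Psmc5 (105.2 ± 4.95 CPM per kilobase), Psmc1 (100.4 ± 2.06), Psmc4 (99.3 ± 3.36) and Psmc3 (80.4 ± 2.82) were high, while Psmc2 (34.9 ± 1.36) and Psmc6 (32.5 ± 1.498) were lower (SD, n = 3). Per kilobase of coding sequence all 6 lay close together, from 91.3 (Psmc6) to 171 (Psmc4), the highest 1.88 times the lowest. The exon length of Psmc2, 5031 bases, is far above its coding length of 1425.

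Among the non-ATPase cap subunits, Psmd7 (116 ± 5.17 CPM per kilobase) and Psmd2 (113 ± 5.27) were highest per kilobase of exon. Per kilobase of coding sequence Psmd7 (272) remained highest, while Psmd2 (165) was below Psmd3 (249), Psmd8 (242) and Psmd4 (210.3). With copy reads added Psmd2 (131 ± 6.24 CPM per kilobase of exon) was above Psmd7. Psmd2 is a scaffold that receives shuttle factors, and Psmd7 is the partner of the deubiquitinase Psmd14. The ubiquitin receptor Psmd4 stood at 97.8, 89.6 and 98.3 CPM per kilobase in replicates 1, 2 and 3. Psmd14, which removes the ubiquitin chain before degradation, stood at 40.7, 43.4 and 41.5 CPM per kilobase, below Psmd7 in every library. The lid subunits Psmd8 (85.8 ± 1.63) and Psmd3 (83.2 ± 1.42) were also high. The remaining members, Psmd12, Psmd1, Psmd13, Psmd6 and Psmd11, lay from 52.7 down to 27.5 CPM per kilobase. With copy reads added Psmd11 stood at 37.5 ± 1.60 CPM per kilobase of exon, and Psmd6 (33.4) was lowest. The processed pseudogene Gm15542 (1835, 1238 and 1290 reads in replicates 1, 2 and 3) overlaps Psmd13 over 1194 bases on the same strand.

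The activator genes spanned the widest range. Psme1 (chromosome 14, 55578123 to 55581529), the alpha subunit of the interferon-inducible activator ring, was the highest member of the whole family at 179.7, 181.8 and 181.96 CPM per kilobase in replicates 1, 2 and 3. Its partner Psme2 (chromosome 14, 55587441 to 55591113), the beta subunit, stood at 71.7, 71.9 and 76.8 CPM per kilobase. Psme2 was below Psme1 in 3 of 3 libraries, a log2 ratio of -1.30 ± 0.05. The coding gene Psme2b shares sequence with Psme2, 33.5% of whose 31-base words also occur in other genes. The symbol Psme2b fits the naming rule but was not found in the count table, so the level of Psme2 is uncertain. Psme3, which forms the nuclear activator ring, was at 120.4, 127 and 126 CPM per kilobase, below Psme1 by a log2 ratio of 0.54 ± 0.03 (Psme1 to Psme3). Psme4, the large single-chain nuclear activator, was at 16.6, 16.6 and 16.0 CPM per kilobase, a log2 ratio of -2.92 ± 0.06 to Psme3. Each of these orders held per kilobase of coding sequence, where Psme1 to Psme3 was 0.28 ± 0.03, Psme2 to Psme1 -1.61 ± 0.05 and Psme4 to Psme3 -4.21 ± 0.06.

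Genes that assemble the proteasome had lower medians than its subunits, 22.0 CPM per kilobase for the chaperones of the core and 7.34 for those of the cap. Of the chaperones of the core, Psmg4 stood at 55.3 ± 1.57 CPM per kilobase, Psmg1 at 29.1 ± 2.08, Psmg2 at 14.9 ± 2.26 and Psmg3 at 12.04 ± 0.648. Their order depended on the length used, since per kilobase of coding sequence Psmg3 (95.2) was the highest, above Psmg4 (83.1), Psmg1 (45.1) and Psmg2 (32.6). The chaperones of the ATPase ring, Psmd10 (14.9 ± 0.792), Psmd5 (7.34 ± 0.168) and Psmd9 (4.52 ± 0.282), included the lowest of the tested members per kilobase of exon. With coding length Psmd9 (43.9) was the highest of the 3, and the lowest tested members were Psme4 (23.7) and Psma5 (24.4). Psmf1, a regulator first described as an inhibitor of the core, stood at 13.1 ± 0.471 CPM per kilobase. The germ cell alpha subunit Psma8 had 4, 2 and 0 reads, and Psmb11, the catalytic subunit of thymic cortical epithelium, had none. For a count of 0, 3 counts were taken as the approximate one-sided 95% upper limit. At these depths that is 0.158 CPM in replicate 1, 0.237 CPM in replicate 2 and 0.204 CPM in replicate 3.

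Whole roles could not be ranked against each other. The median core gene was below the median ATPase by 0.45 on the log2 scale (-0.45 ± 0.08, SD, n = 3) and above the median non-ATPase cap gene by 0.29 ± 0.06, and the ATPases exceeded the other cap genes by 0.74 ± 0.03. The immunoproteasome median differed from that of the constitutive catalytic subunits by -0.15 ± 0.05. The exact sign-flip permutation test gave p = 0.25 for all 4 differences, the smallest possible. Per kilobase of coding sequence the core exceeded the ATPases (0.60 ± 0.02), the immunoproteasome difference turned to 0.24 ± 0.05 and the ATPases differed from the other cap genes by 0.03 ± 0.07. The choice of length moved 3 of the 4 differences by more than their own size and the last of them to near 0. With role means in place of medians the core was below the non-ATPase cap genes, by -0.21.

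The members varied little between the libraries, but for some of them by more than counting noise. By a likelihood-ratio test in edgeR at zero dispersion, which compares these libraries and not conditions, 16 of the 46 tested members (34.8%) varied at an adjusted p under 0.05, against 13.7% of all 13500 genes tested. That test finds small differences more readily in abundant genes. Among the 2013 genes at 86.6 to 214 CPM, between the lower and upper quartile of the members, 25.3% were called, and 7 of the 22 members in that range. The median range between libraries was 0.11 log2 units over the members and 0.17 over all tested genes. Over the 2013 genes at 86.6 to 214 CPM it was 0.096, a little below the value of the members. By role, 7 of the 14 constitutive core genes, 1 of 3 immunoproteasome genes, 6 of 17 cap genes, 1 of 4 activators and 1 of 7 assembly chaperones varied.

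Psmb8 had the clearest difference. It stood at 208, 188 and 241 CPM in replicates 1, 2 and 3, a range of 0.37 log2 units (adjusted p = 7.55e-20, edgeR likelihood-ratio test). Replicate 3 was highest and replicate 2 lowest. Psmb9 (110.3, 117 and 118 CPM) and Psmb10 (22.9, 23.0 and 22.4 CPM) did not pass the same test, with adjusted p of 0.201 and 0.984, nor did Psmb5 (23.5, 24.9 and 26.1 CPM, adjusted p = 0.493). Psmb6 showed a similar order to Psmb8, at 145, 140.5 and 163 CPM (range 0.22 log2 units, adjusted p = 8.34e-06). The widest range was that of Psmg2, at 29.4, 21.6 and 26.4 CPM (0.44 log2 units, adjusted p = 0.00248). Psma3, at 63.1, 78.5 and 67.1 CPM, was highest in replicate 2 (0.32 log2 units, adjusted p = 6.02e-05). With the reads of its copies added, whose share was lowest in replicate 2, the range was 0.12 log2 units (adjusted p = 0.0308, edgeR likelihood-ratio test). Psma4 (255, 262 and 228 CPM, adjusted p = 9.92e-07) was lowest in replicate 3, and Psmb4 (189, 220.1 and 211 CPM, adjusted p = 3.95e-08) was lowest in replicate 1.

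**Figure D4:**
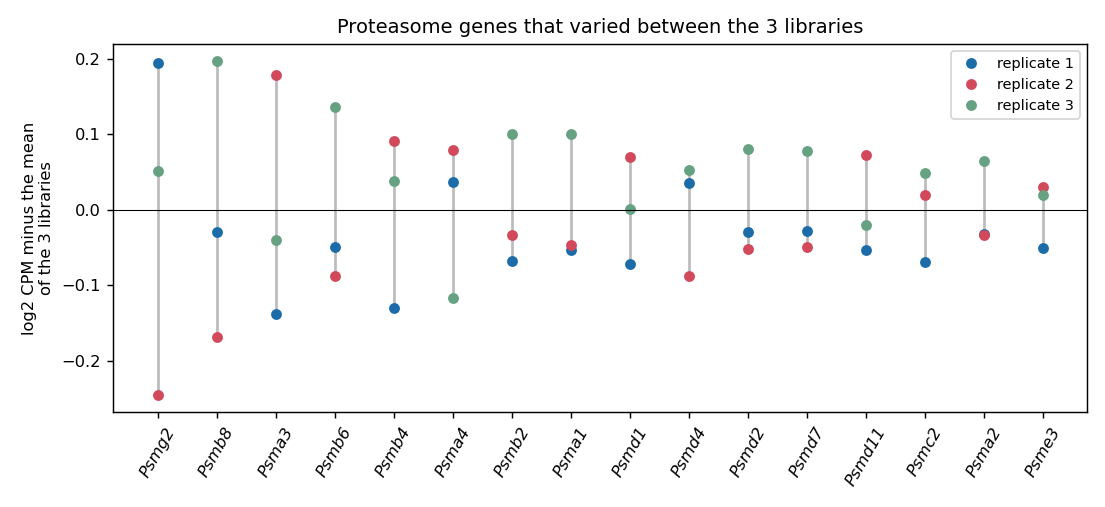
For the 16 members that varied, points give the log2 CPM in each library minus the mean of the 3 libraries, ordered by range. Replicate 3 is highest for 9 of them, replicate 2 for 6 and replicate 1 for 1; no library is the highest for all.

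The other 10 varying members were Psma1, Psma2 and Psmb2 of the core, Psmc2, Psmd1, Psmd2, Psmd4, Psmd7 and Psmd11 of the cap and the activator Psme3. Their ranges lay between 0.08 (Psme3) and 0.17 log2 units (Psmb2). Replicate 3 was highest for 9 of the 16, replicate 2 for 6 and replicate 1 for 1. Psmb8 was the only member called under every alternative of the test that it entered (8 of 8, highest adjusted p = 0.00666). Leaving out replicate 1, 2 or 3 left 8, 9 or 7 of the 46 members called, beside 8.48%, 9.03% and 5.61% of all genes in the same fits. Psma4 and Psmb6 lost the call without replicate 3, Psmb4 without replicate 1, Psma3 without replicate 2 and Psmg2 without replicate 1 or 2 (adjusted p from 0.0812 to 0.712, edgeR likelihood-ratio test).

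Partner genes that the naming rule leaves out were also present. Of 51 genes in 5 lists, 49 were found in the table, all 49 were tested and 13 varied between the libraries, against 13.7% of all genes. That share is not matched for level: among tested genes between each list's quartiles of CPM, from 15.5% to 58.1% were called. Adrm1 (10.5 ± 0.758 CPM per kilobase), a ubiquitin receptor of the cap, and Pomp (12.7 ± 1.56), the maturation factor of the core, were below most subunits. Pomp stood at 67.5, 73.9 and 57.7 CPM, lowest in replicate 3, and was the 1 of 8 partners that varied (adjusted p = 5.27e-05, edgeR likelihood-ratio test). That is 12.5% of them, against 15.5% of the 1411 tested genes between the quartiles of CPM of these partners. Nfe2l1, the transcription factor that raises proteasome genes when degradation is impaired, stood at 243, 243 and 246 CPM, and 0 of the 8 genes of its list varied. Of the 2417 tested genes between that list's quartiles of CPM, 17.4% were called. In the ubiquitin list 4 of 11 genes varied (36.4%, against 36.9% of the 1340 tested genes between the list's quartiles of CPM), among them Ubb (1108, 1086 and 1214 CPM) and Sqstm1 (365, 337 and 389 CPM), each highest in replicate 3 and lowest in replicate 2.

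The class I antigen processing genes, which handle the peptides that the immunoproteasome makes, stood above the family, with a median of 155 CPM per kilobase. The peptide transporter genes Tap1 (109, 111 and 113 CPM per kilobase) and Tap2 (77.9, 72.6 and 80.1) lie beside Psmb9 and Psmb8 on chromosome 17, Tap1 between them. Of the 12 genes 7 varied (58.3%, against 58.1% of the 191 tested genes between the quartiles of this list), including Tap2, B2m (1057, 1035 and 1115 CPM) and Nlrc5, the activator of class I genes (540.3, 574 and 525 CPM). Tap2 and B2m were highest in replicate 3 and lowest in replicate 2, as Psmb8 was, while Nlrc5 was highest in replicate 2. Of the 10 genes that carry interferon signals to the immunoproteasome genes, only the kinase gene Jak1 varied (491, 487 and 458 CPM, adjusted p = 0.00349, edgeR likelihood-ratio test). Among the 3042 tested genes between the quartiles of this list 26.2% were called. Whether such short lists differ from these shares was not tested. Irf1, at 403 ± 10.97 CPM (SD, n = 3), did not pass (adjusted p = 0.0871).

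The family is spread over 16 chromosomes, with 3 pairs of members under 100000 bases apart. Psmb8 and Psmb9 are 9956 bases apart on chromosome 17, Psme1 and Psme2 5911 bases apart on chromosome 14, and Psmb5 and Psmb11 3410 bases apart on the same chromosome. Each pair lies on opposite strands. Neighbours differed in level, with no read of Psmb11 beside 315 to 447 reads of Psmb5.

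Promoter sequences from RefSeq (GRCm38.p6) were found for 40 of the 48 genes, 43 promoters in all, and the 250 bases before each start were searched on both strands. The word TGACNNNGC, the core of the element that Nfe2l1 and related factors bind, was in 5 of the 43 promoters (11.6%), against 10.2% of all 32851 promoters. CCAAT was in 32.6% against 33.9%, the interferon-type word of GAAA, any 2 bases and GAAA again in 3 promoters (6.98% against 2.98%; Psmb3, Psmd4 and Psmd9) and the word TTCNNNGAA in 2 (4.65% against 7.02%; Psmb8 and Psmg1). The words can overlap each other and a match is only a match of letters. Windows of 29 bases, 5′ to 3′ on the gene's strand, are shown for the matches of TGACNNNGC and TTCNNNGAA in promoters of catalytic subunits, with the matched word in capitals. The CCAAT matches, among them those of Psmb9 and Psmb11, are not shown. The first lies at chr11:70525328-70525356 (plus strand), the second at chr14:54618024-54618052 (minus strand) and the last, a TTCNNNGAA match, at chr17:34198088-34198116 (plus strand). That window lies inside Psmb8 as GENCODE gives the gene, because the RefSeq start used for the promoter is further downstream.
Psmb6: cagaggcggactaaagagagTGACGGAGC
Psmb5: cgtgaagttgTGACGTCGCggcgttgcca
Psmb8: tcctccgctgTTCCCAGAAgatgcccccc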

How the data were processed

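The authors deposited raw gene-level read counts (whole numbers, 1 column per library) from 3 Ion Proton RNA-seq libraries; the build is mm10, per the submitters' processing notes. For the aligner, counter, annotation, strand use and handling of multiply mapped reads, the state is "not given in the sources used here". The members, gene lists, roles and tests were chosen with earlier results of these data known. Every member and every gene of the pathway lists could be named, and of the marker lists the highest and a few defining genes; Zbtb46 and the macrophage genes without reads were added after their values were seen. Values of some listed genes are not reported here. CPM is a gene's counts per 1000000 of its library. Levels were divided by exon union length, or by coding length as an alternative, of GENCODE vM21 gene models (GRCm38, which mm10 names). With 1 group no contrast existed, so differences between libraries were tested with edgeR 4.0.16 (R 4.3.3) on TMM-scaled counts, for genes that reached 1 CPM in 2 or more libraries. The glmFit model had zero dispersion, and likelihood-ratio p-values were adjusted by Benjamini-Hochberg over all 13500 genes. Simulated Poisson counts of those genes gave 76 calls among 100 true 1.5-fold changes of 1 library, 89 calls among 100 true 2-fold changes and 15 false ones. The simulation held only the counting noise that the test assumes, so it does not give the number of false calls in these libraries. Ratios used 0.5 added to each count, role medians log2(CPM per kilobase + 1). Sharing was counted over 31-base words of GENCODE transcripts, copies were found by it with a rule chosen after seeing the data, and Biopython 1.88 aligned them. Alternatives were DESeq2 1.42.0 size factors, library totals, other filters, lengths, pseudocounts, means, genes with under 5% shared words, copy reads added and each library left out.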

Additional observations from a re-analysis of the deposited data

How the results depend on the processing

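No paired analysis was possible because all 3 libraries belong to 1 group. Adding the copy reads was chosen after seeing the data; the other alternatives were set earlier. Without division by length the log2 ratios were 3.09 (Psmb8 to Psmb5), -0.38 (Psmb9 to Psmb6), -2.39 (Psmb10 to Psmb7), 0.13 (Psme1 to Psme3), -1.63 (Psme2 to Psme1) and -1.42 (Psme4 to Psme3). With coding length they were 3.03, -0.30, -2.37, 0.28, -1.61 and -4.21. With copy reads added, Psmb8 to Psmb5 turned to -0.34 (1.51 with coding length) and Psme1 to Psme3 was 0.59. The difference between core and ATPase medians was 0.60 with coding length, -0.36 among members with under 5% shared words and -0.25 with copy reads. That between core and other cap genes turned to -0.93 without division by length, -0.21 with means and -0.12 with under 5% shared words, and was 0.63 with coding length and 0.48 with copy reads. The immunoproteasome difference was -0.059 without division by length, 0.24 with coding length, -0.50 with means and -1.29 with copy reads. With under 5% shared words no constitutive catalytic subunit was left, so this difference could not be taken. The ATPase to other cap difference was -0.48, 0.030, 0.18 and 0.24 without division by length, with coding length, with means and with under 5% shared words. In these cases the cause of the change was the changed length, summary, members or reads themselves. Leaving out a library kept every sign. The summed share was 0.790% of counts outside mitochondrial, ribosomal protein and Rn18s-rs5 genes and 0.798% with copy reads. Of members tested, 7 varied among those with under 5% shared words (26 tested; 13.0% of all genes in that fit) and 7 to 9 with a library left out (5.61% to 9.03% of all genes). Over 394 results of single members under alternatives, 362 kept their side of the threshold, 31 lost the call and 1 gained it (Psmc5 with at least 10 CPM).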
